A study of Homo sapiens with 4 samples.

Results

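The chromosome 19 miRNA cluster of primates consists of C19MC, a long run of related miRNA genes, and of MIR371A, MIR372 and MIR373, which lie just downstream of it. Its members were taken by position, as every feature that lies whole within a fixed window on the plus strand of chromosome 19, and in that window the first member starts at 53666679 and the last ends at 53788773 (GRCh38). This gave 49 of the 7062 small RNA features in the deposited tables, and 49 of the 1871 that are miRNA genes. C19MC accounted for 46 members over 95.751 kb, and the other 3 followed after a gap of 25.245 kb.

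Small RNAs were sequenced from HEK293T, a human embryonic kidney cell line, in which a transfected RPB1 was meant to replace the endogenous one. RPB1 is the largest subunit of RNA polymerase II, and its C-terminal domain is a chain of heptad repeats, 52 in both constructs used here. The 52X WT construct had the wild-type repeats, and the 52X T4A construct had alanine in place of threonine at heptad position 4. Each group had 2 libraries, described in the series design as biological replicates, and the comparison asked how small RNA levels differed between the constructs. All 4 cultures received 1.5 µg of plasmid per well and then 2.5 µg/ml α-amanitin for 72 h. The toxin inhibits endogenous RPB1 and is meant to leave cells that carry the plasmid, so that no group was free of transfection or toxin. Expression was transient and no clone was made. Since the RNA was from bulk cultures, fewer cells expressing a miRNA and less of it per cell cannot be told apart. RPB1 itself is not a small RNA, so neither construct could be checked in these tables.

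C19MC is specific to primates and is imprinted, with expression from the paternal allele, and it is best known as a major source of miRNAs in the placenta. Its miRNAs are cut from introns of a long transcript made by RNA polymerase II. MIR371A, MIR372 and MIR373 are known from human embryonic stem cells and germ cell tumours. A miRNA finds its targets mainly through its seed, the bases from 2 to 8 counted from the 5′ end, so that genes with the same seed are grouped as a family.

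The sequences below carry the comparisons that follow. They are mature miRNAs from RefSeq on GRCh38.p14, written 5′ to 3′ with the seed in capitals, and all of the members lie on the plus strand. RefSeq gave 86 mature entries for 48 of the 49 members, which came down to 60 distinct sequences and 38 distinct seeds. MIR527 had no entry. The first set shows both arms of miR-512, the most abundant member, and its entries at MIR512-1 lie at chr19:53666692-53666714 and chr19:53666729-53666750.
hsa-miR-512-5p: cACUCAGCcuugagggcacuuuc
hsa-miR-512-3p: aAGUGCUGucauagcugagguc

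The next set shows the seed AAGUGCU, shared by miRNAs of C19MC, by miR-372 and miR-373 downstream, and by the miR-302 family of embryonic stem cells. The miR-302a entry is on the minus strand of another chromosome, at chr4:112648186-112648208, and was included for comparison.
hsa-miR-520a-3p: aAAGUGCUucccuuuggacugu
hsa-miR-520c-3p: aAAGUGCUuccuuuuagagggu
hsa-miR-372-3p: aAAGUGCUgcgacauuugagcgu
hsa-miR-373-3p: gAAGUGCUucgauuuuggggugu
hsa-miR-302a-3p: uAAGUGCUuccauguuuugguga

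Another set shows a seed that the cluster has in common with the miR-17 family, which is abundant in proliferating cells. The miR-17 entry lies at chr13:91350618-91350640 on the plus strand.
hsa-miR-519d-3p: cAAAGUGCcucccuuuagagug
hsa-miR-17-5p: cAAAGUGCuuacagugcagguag

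The last set shows how alike the genes of C19MC are. The 3p arms of MIR517A and MIR517B are the same sequence, that of MIR517C is a near copy, and a single 5p sequence is listed for 6 genes (MIR518E, MIR519A1, MIR519B, MIR519C, MIR522 and MIR523).
hsa-miR-517a-3p: aUCGUGCAucccuuuagagugu
hsa-miR-517b-3p: aUCGUGCAucccuuuagagugu
hsa-miR-517c-3p: aUCGUGCAuccuuuuagagugu
hsa-miR-518e-5p: cUCUAGAGggaagcgcuuucug

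In the libraries, counts assigned to all features totalled from 16180790 to 27370127, with 52X T4A replicate 2 the deepest. The miRNAs fixed as typical of HEK293T (10 of 10 listed, among them MIR10A, MIR10B and MIR92A1) held from 23.4% to 29.9% of the counts of a library. Liver and blood miRNAs were near 0, with MIR122 at no more than 15 counts in a library and 4 blood miRNAs at a sum of 0.617 to 1.52 CPM. The 3 MIR124 genes of neurons summed to between 4.36 and 12.1 CPM, with the groups overlapping. By contrast, a list of 5 muscle miRNAs, all of them present, summed to 96.5 and 81.6 CPM in 52X T4A and to 30.5 and 33.1 CPM in 52X WT, almost all of it from MIR1-1 and MIR1-2. CPM here means counts scaled to a common library size, after correction of each total by its TMM factor. None of the muscle genes was called at the threshold used here. In 52X T4A replicate 1, MIR1-1 and MIR1-2 had 738 and 740 counts, and MIR92A1 and MIR92A2 had 146628 and 146408. The MIR103A genes and the MIR124 genes were also nearly equal among themselves. The same reads may be entered at several of these genes and raise the sums and shares given here.

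The cluster was a very small share of the small RNA in these cells. Its 49 members together held 1262 and 2082 counts in 52X T4A replicates 1 and 2, and 765 and 1183 counts in 52X WT replicates 1 and 2. That was from 0.00472% to 0.00780% of a library. All members were seen in some library, 33 of them in all 4, and between 42 and 44 members had a count in any one library. The level was far from even along the cluster. MIR512-1 and MIR512-2, the first genes of C19MC, held 71.3% of the 5292 member counts, whereas no other member reached more than 58 counts in a library. The counts of the pair differed by at most 1 read in any library. The same reads may therefore be entered at both genes and raise this share.

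**Figure D1:**
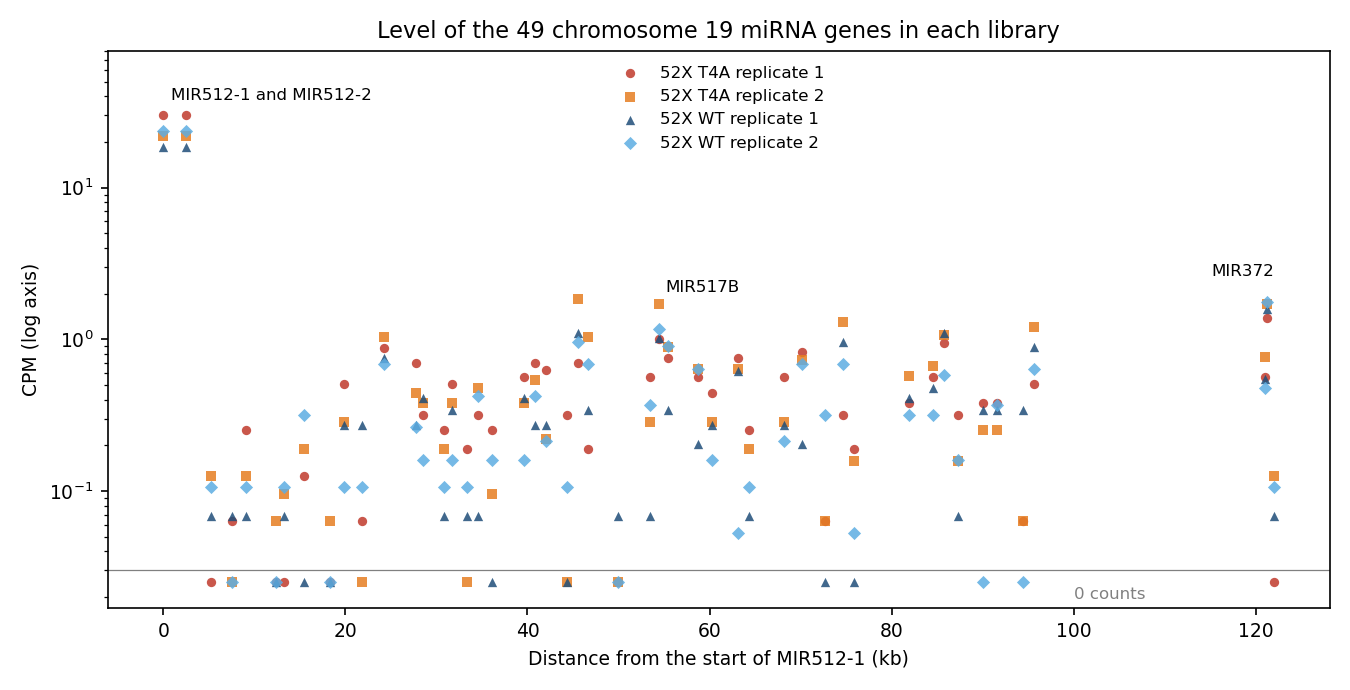
CPM of each of the 49 genes (log axis) against distance from the start of MIR512-1 in kb, with a symbol for each library and genes with 0 counts drawn below the grey line. MIR512-1 and MIR512-2 lie between 18.4 and 30.2 CPM, the other genes of C19MC lie below 2 CPM, and MIR372 stands among the MIR371A to MIR373 group at the right.

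Levels were compared between genes per kb of the annotated hairpin. MIR512-1 had a mean of 281 CPM per kb over the 4 libraries and MIR512-2 had 241 CPM per kb. Their total counts were 1886 and 1887, so this difference comes only from annotated lengths of 84 and 98 bases. MIR372 came next at 23.99 CPM per kb, so that MIR512-1 was 11.7 times higher. Among the 1271 miRNA features with any count, ordered by total count, MIR512-2 and MIR512-1 ranked 214 and 215, MIR372 ranked 433, and MIR517B and MIR517A ranked 471 and 475.

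Whether a member rose or fell between the constructs was tested in edgeR by its quasi-likelihood method, across all features that passed a filter on low counts, and 15 members passed. A call needed both a fold change over 1.5 and an FDR (the p adjusted over all of those features) under 0.05. None of the 15 members met this, beside 0.135% of the 1480 features tested. DESeq2 gave an adjusted p for only 2 of the 15, MIR512-1 and MIR512-2 (0.725 for each), and called neither, while its adjusted p was not available (NA) for the other 13. In edgeR, 0 members had an unadjusted p below 0.05, the smallest being 0.183. The log2 fold changes (52X T4A over 52X WT) ran from -0.09 to 1.13 with a median of 0.36, and 14 of 15 were above 0. The median over all features tested was -0.05, with 46.1% above 0, and over the 621 tested miRNAs it was -0.02, with 48.3% above 0. Many C19MC members share mature sequences and lie in 1 host gene, so their directions are not independent of each other. Some of the 15 passed the filter only through their 52X T4A libraries, as given below. The remaining 34 members, left out by the filter, had between 1 and 50 counts over all 4 libraries (median 13.5) and made up 11.2% of member counts. With no filter all 49 were tested and 0 called, with a smallest edgeR FDR of 0.707. Of these 49, 37 had a log2 fold change above 0 (median 0.47).

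MIR512-1 (chr19:53666679-53666762) and MIR512-2 (chr19:53669157-53669254) encode the same pair of mature miRNAs. MIR512-1 had 478 and 694 counts in 52X T4A and 269 and 445 counts in 52X WT, or 30.2, 22.0, 18.4 and 23.6 CPM. The highest and the lowest library were from different groups, but 52X WT replicate 2 lay above 52X T4A replicate 2 and the groups overlapped. The group means were 26.1 ± 5.81 CPM for 52X T4A and 21.0 ± 3.68 CPM for 52X WT, where ± marks the SD of n = 2 libraries, as in all values that follow. The log2 fold change was 0.31 (SE 0.33, 95% interval -0.43 to 1.04, edgeR FDR 0.729). Leaving out 1 library moved it to 0.034 without 52X WT replicate 1, 0.046 without 52X T4A replicate 1, 0.50 without 52X WT replicate 2 and 0.54 without 52X T4A replicate 2. The interval spans both a modest decrease and a doubling, so that a change within those bounds was not excluded here. MIR512-2 had the same count as MIR512-1 in 3 of 4 libraries and differed by 1 read in the other, and its hairpin and that of MIR512-1 are contained one within the other. Its values therefore add no second measurement.

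**Figure D2:**
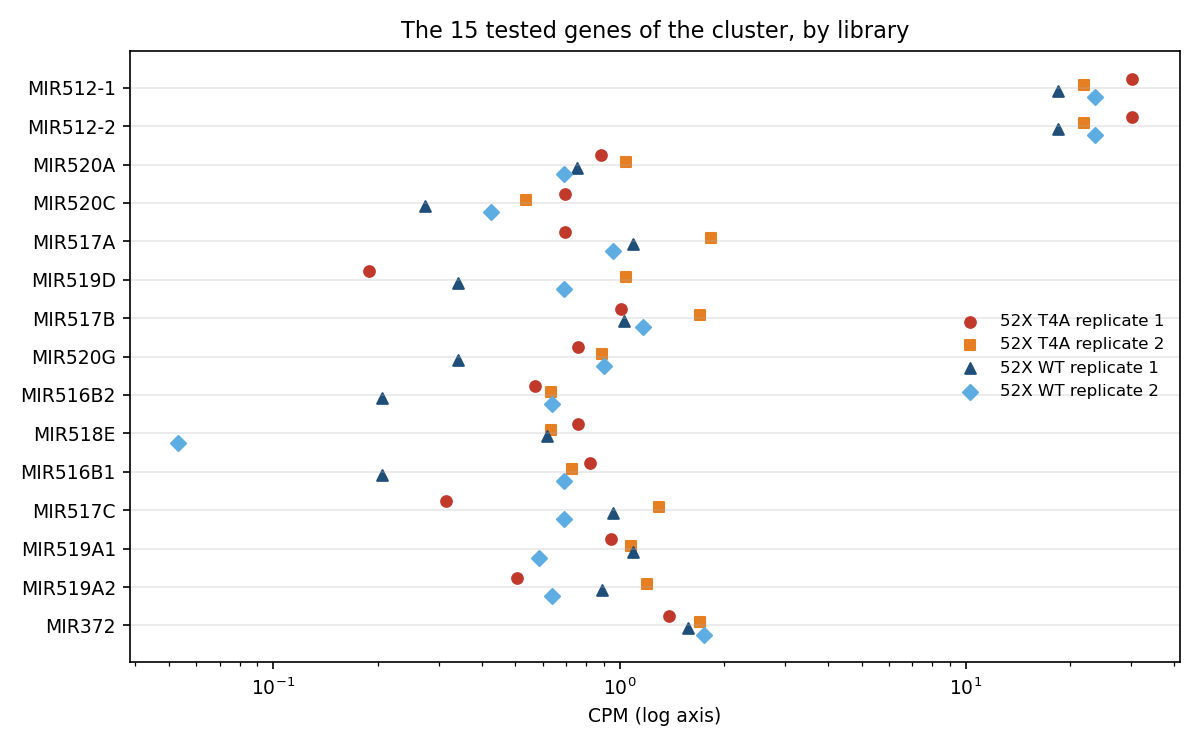
CPM (log axis) of the 15 tested genes in genomic order, with a symbol for each of the 4 libraries. The replicates of a group are often as far apart as the groups, as for MIR519D, whose lowest and highest libraries (0.190 and 1.05 CPM) are both 52X T4A.

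Of the 15 tested members, 4 had both 52X T4A libraries above both 52X WT libraries in CPM, namely MIR520A, MIR520C, MIR518E and MIR516B1, and none had the reverse. That is 26.7% higher, where 18.9% of all tested features were higher and 21.2% lower without overlap. In MIR520C and MIR518E both 52X WT counts lay under the filter's minimum of 10, so both genes passed through 52X T4A alone. MIR516B1 could not have passed through 52X WT alone, with 3 counts in 52X WT replicate 1. Members near the minimum thus entered the tested set through their 52X T4A counts, and the 26.7% is not read as a result. In MIR520A, which carries the AAGUGCU seed on its 3p arm, the counts were 14 and 33 in 52X T4A and 11 and 13 in 52X WT. Expression averaged 0.965 ± 0.114 CPM for 52X T4A and 0.722 ± 0.0447 CPM for 52X WT, with a log2 fold change of 0.43 (SE 0.46, edgeR FDR 0.730). MIR520C, with the same 3p seed, had 11 and 17 counts in 52X T4A and 4 and 8 in 52X WT, a log2 fold change of 0.76 (SE 0.56, edgeR FDR 0.590). These were the only members among the 15 in which the group difference exceeded the gap between replicates of either group.

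MIR518E had the largest estimate, and it depended on which 52X WT library was kept. Its counts were 12 and 20 in 52X T4A, and 9 and 1 in 52X WT, so that 52X WT replicate 1 was close to the 52X T4A libraries (0.617 CPM beside 0.758 and 0.633 CPM) and 52X WT replicate 2 was at 0.0531 CPM. The log2 fold change was 1.13 (SE 0.79, 95% interval -0.64 to 2.90, edgeR FDR 0.584), and it was 0.15 without 52X WT replicate 2 but 3.47 without 52X WT replicate 1 (edgeR FDR 0.246). In MIR516B1 the low library was the other one. It had 13 and 23 counts in 52X T4A, and 3 and 13 in 52X WT, with a log2 fold change of 0.71 (SE 0.60, edgeR FDR 0.650). Without 52X WT replicate 1 that estimate was 0.065, and without 52X WT replicate 2 it was 1.87 (edgeR FDR 0.224).

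MIR516B2 encodes the same matures as MIR516B1 and showed the same low library, with 9 and 20 counts in 52X T4A and 3 and 12 in 52X WT, but its groups overlapped. MIR520G had 12 and 28 counts in 52X T4A and 5 and 17 in 52X WT. In both genes 52X WT replicate 2 was the highest library in CPM and 52X WT replicate 1 the lowest.

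A second group of members was set apart by 52X T4A replicate 2. MIR517B and MIR517A were the most abundant genes of C19MC after MIR512, per kb. MIR517A had 11 and 58 counts in 52X T4A and 16 and 18 in 52X WT. MIR517B had 16 and 54 counts in 52X T4A and 15 and 22 in 52X WT. MIR517C had 5 and 41 counts in 52X T4A and 14 and 13 in 52X WT. In all of them the highest and the lowest CPM came from the 2 replicates of 52X T4A, while the 52X WT libraries lay between. MIR519D showed the widest gap of this kind, with 3 and 33 counts in 52X T4A, a log2 difference in CPM of 2.46 between replicates, beside a group difference of 0.36. Its counts in 52X WT were 5 and 13. MIR519A2 followed the same order with 8 and 38 counts in 52X T4A, and 13 and 12 in 52X WT. For these genes the log2 fold changes of 0.09 to 0.37 were smaller than the spread between replicates, and without 52X T4A replicate 2 they turned negative, from -1.42 for MIR519D to -0.11 for MIR517B. MIR519A1, which encodes the same 3p miRNA as MIR519A2, did not follow it, at 15 and 34 counts in 52X T4A and 16 and 11 in 52X WT.

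**Figure D3:**
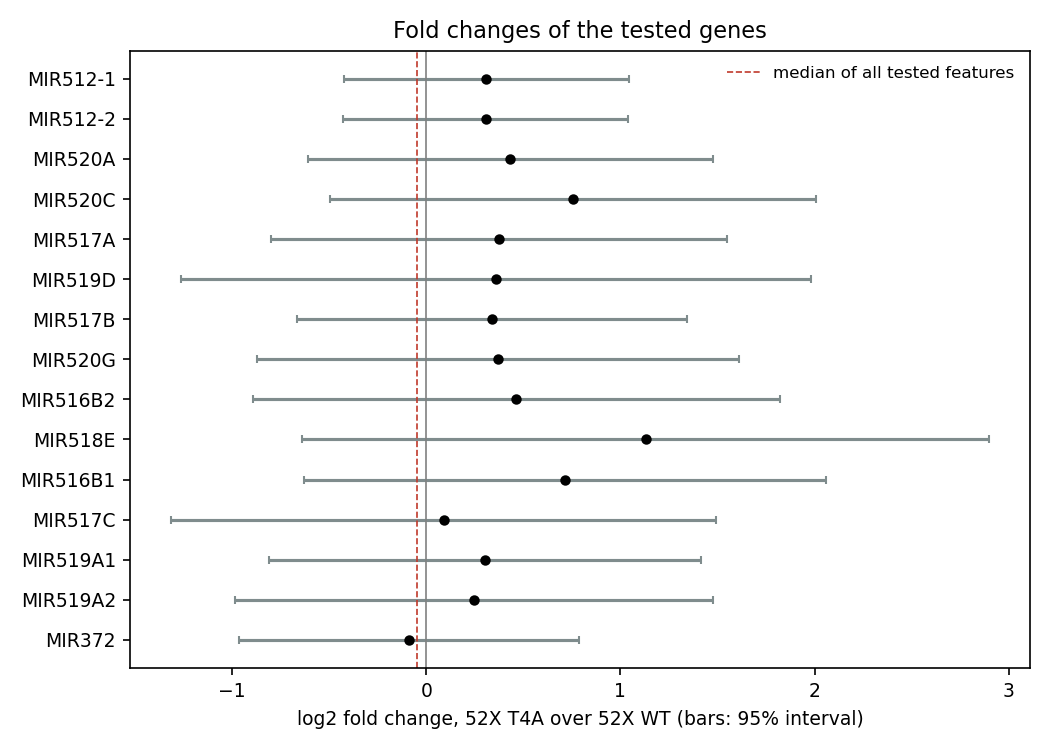
Log2 fold change (52X T4A over 52X WT) of the 15 tested genes in genomic order, as points with 95% intervals from the edgeR fit, with the median of all tested features as a dashed line. Every interval spans 0, MIR518E has the widest, and MIR372 is the one gene with an estimate below 0, though above 0 with upper quartile factors or library size alone.

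Across the 15 tested members, the gap between replicates of a group was larger than the difference between groups in 13. The lowest library was 52X WT replicate 1 in 6 members, 52X T4A replicate 1 in another 6 and 52X WT replicate 2 in 3. It was never 52X T4A replicate 2, the deepest library.

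Downstream of C19MC, MIR372 had 22 and 54 counts in 52X T4A and 23 and 33 in 52X WT. These corresponded to 1.39 and 1.71 CPM in 52X T4A, and to 1.58 and 1.75 CPM in 52X WT, with overlap. The means were 1.55 ± 0.227 CPM for 52X T4A and 1.66 ± 0.125 CPM for 52X WT, and the log2 fold change was -0.09 (SE 0.39, 95% interval -0.97 to 0.78, edgeR FDR 0.969), a direction that turned to 0.074 and 0.099 with upper quartile factors and with library size alone. Its neighbours did not pass the filter. MIR371A had 9 and 24 counts in 52X T4A and 8 and 9 in 52X WT, and MIR373 had 0 and 4 in 52X T4A and 1 and 2 in 52X WT. A count of 0 in 52X T4A replicate 1 allows up to 3 counts, or 0.190 CPM, by counting error alone.

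Summing over members gave a single value per library for each section of the cluster. The 46 C19MC genes summed to 77.8 and 63.3 CPM in 52X T4A and to 50.2 and 60.5 CPM in 52X WT. Both 52X T4A libraries were above both 52X WT libraries, by a narrow margin at 63.3 and 60.5 CPM. The log2 ratio was 0.35, with a replicate SD of 0.20, and the exact two-sided permutation test gave p = 0.333, the smallest that 2 against 2 libraries allow. Most of this sum was the MIR512 pair, at 60.4 and 43.96 CPM in 52X T4A and 36.9 and 47.3 CPM in 52X WT, which overlapped (log2 ratio 0.30, exact permutation p = 0.667). The same reads may be entered at both genes of the pair. With 1 gene kept per set of members whose counts agree within 2%, the C19MC log2 ratio was 0.37. Those sets were formed from counts alone, and joined MIR525 with MIR518A1, which list no mature in common. Genes with shared matures but less equal counts, such as MIR517A and MIR517B, all stayed in. Reads entered at several genes may therefore remain in this sum.

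The other 44 genes of C19MC, a split made after the values were seen, had a sum with closer replicates. Single genes among them moved in opposite ways between the 52X T4A replicates. The log2 difference of replicate 2 from replicate 1 was 2.46 for MIR519D and -0.37 for MIR520C. A close sum therefore does not mean that each gene was steady. The 44 genes summed to 17.4 and 19.4 CPM in 52X T4A and to 13.3 and 13.2 CPM in 52X WT, so that the groups did not overlap. The means were 18.4 ± 1.42 and 13.3 ± 0.0478 CPM, with a log2 ratio of 0.47 (replicate SD 0.079, exact permutation p = 0.333). This sum is of genes that share matures, and a read counted at several genes enters it more than once. The muscle miRNAs given above were higher in the same libraries, and their part in the result was not tested. The MIR371A to MIR373 group summed to 1.96 and 2.60 CPM in 52X T4A and to 2.19 and 2.34 CPM in 52X WT. Both 52X WT libraries lay between the 52X T4A ones (log2 ratio -0.01, replicate SD 0.21, exact permutation p = 1).

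Other groups of miRNA genes were set beside the cluster. The imprinted cluster of chromosome 14, the most similar large array of miRNA genes, had 52 members at 48.0 and 24.5 CPM in 52X T4A and 31.3 and 33.6 CPM in 52X WT. Of these, 8 were tested and 0 called by edgeR, and their log2 fold changes had a median of -0.01 with 4 above 0. The replicates of 52X T4A were its highest and lowest libraries, with replicate 1 the higher. MIR302A to MIR302D and MIR367, the embryonic stem cell cluster of chromosome 4, had only 14 and 20 counts in 52X T4A and 8 and 9 in 52X WT, and MIR367 had 0 in all libraries. They summed to 0.885 and 0.633 CPM in 52X T4A and to 0.548 and 0.478 CPM in 52X WT. A sum higher in 52X T4A without overlap was thus not particular to C19MC.

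**Figure D4:**
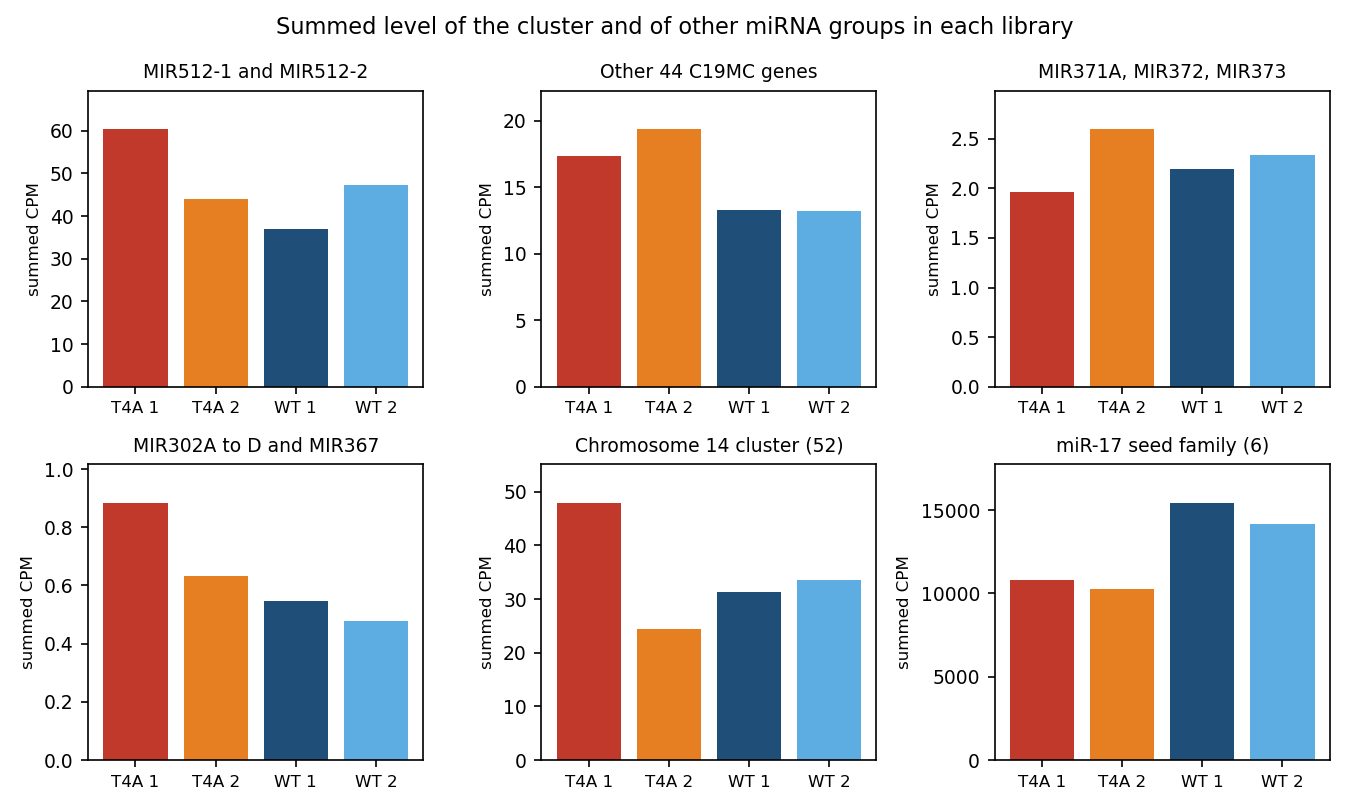
Summed CPM (each axis from 0) of sections of the chromosome 19 cluster and of 3 other miRNA groups in each of the 4 libraries, with no error bars because each bar is 1 library. The other 44 C19MC genes are at 17.4 and 19.4 CPM in 52X T4A and near 13 CPM in 52X WT, while the MIR512 pair and the MIR371A to MIR373 group overlap between constructs. The MIR302A to D and MIR367 sum is also higher in 52X T4A without overlap, at few counts, and the miR-17 seed family is lower.

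Genes were then summed by the seeds they encode. Each count is of a whole gene and does not separate its 5p and 3p arms, so these sums are levels of genes and not of the seeds. The seed UCUAGAG was the most widespread, listed on the 5p arm of 11 members, and those genes summed to 6.07 and 4.91 CPM in 52X T4A and 4.52 and 2.44 CPM in 52X WT. The AAGUGCU seed was listed for 7 members (MIR372, MIR373 and MIR520A to MIR520E), which together had 4.11 and 4.31 CPM in 52X T4A and 2.88 and 3.88 CPM in 52X WT. In each case the 52X T4A libraries were the higher ones. Genes of the UCUAGAG sum share matures, so a read counted at several of them enters it more than once. The AAGUGCU sum includes MIR520A and MIR520C, already given as not overlapping. No share over all seeds was computed, so this is not read as a result about these seeds. Genes outside the cluster with the AAGUGCU seed, MIR302A to MIR302E, were rarer, so that the cluster held from 82.3% to 89.0% of the counts of genes with this seed. MIR372 alone made up 132 of the 316 member counts. The MIR517 genes, all with UCGUGCA as their 3p seed, summed to 2.02 and 4.85 CPM in 52X T4A and 3.08 and 2.82 CPM in 52X WT, with overlap.

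The balance was the reverse for AAAGUGC, the seed of miR-519d and of the miR-17 family. MIR519D and MIR526B, the members that carry it, had 0.885 and 1.49 CPM in 52X T4A and 0.617 and 0.956 CPM in 52X WT. The 6 genes of the miR-17 family had 10819 and 10286 CPM in 52X T4A, and 15444 and 14168 CPM in 52X WT. Hence the cluster held between 0.00399% and 0.0145% of the counts of genes with this seed. The miR-17 family genes had log2 fold changes from -0.66 to -0.41, and none was called.

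How far the members can be told apart was examined in genes listed with the same matures. There were 8 such pairs. MIR515-1 and MIR515-2 have identical hairpins and had equal counts in all 4 libraries, although only 52X T4A replicate 2 had any (2 each). MIR521-1 and MIR521-2 encode the same single mature, but MIR521-1 had 6, 18, 6 and 6 counts in 52X T4A replicates 1 and 2 and 52X WT replicates 1 and 2, and MIR521-2 had 1 count, in 52X WT replicate 1. MIR1283-1 and MIR1283-2 also differed, with 7 and 26 counts in total. MIR517A and MIR517B came close to each other, within 5 counts in every library. Pairs listed with the same matures thus ranged from equal or nearly equal counts to clearly unequal ones.

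**Figure D5:**
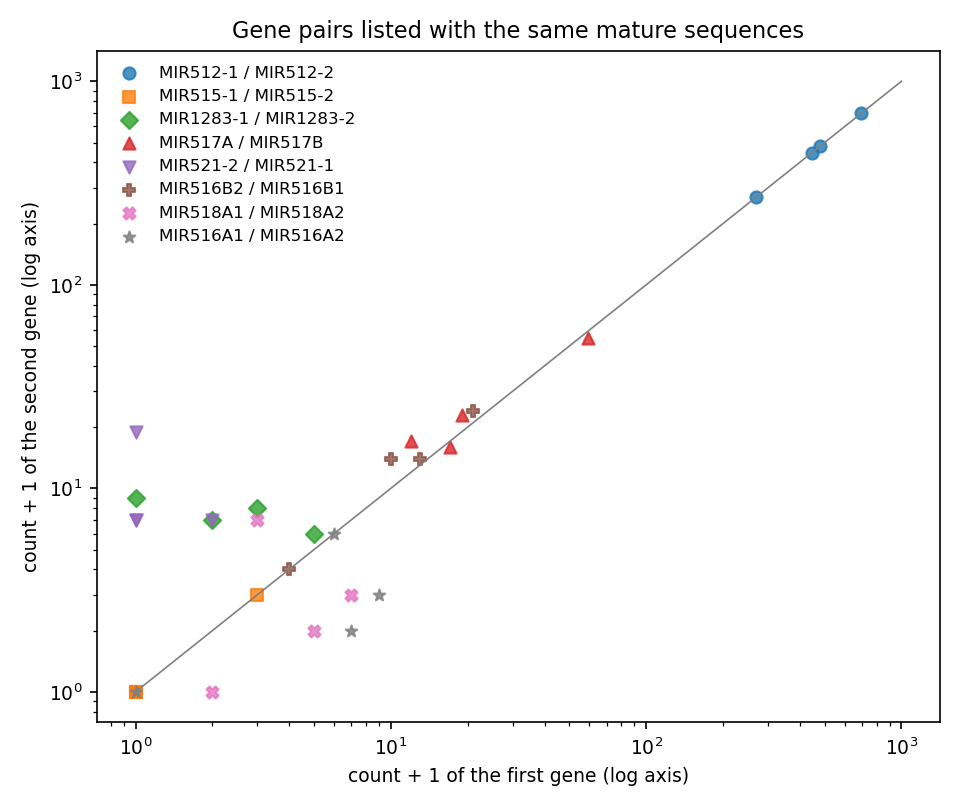
Count + 1 of the second gene against count + 1 of the first gene (both axes log) in 8 pairs of genes listed with the same mature sequences, with a point for each library and a grey line at equality. MIR512-1 and MIR512-2 and the MIR515 pair lie on the line or within 1 count of it, whereas MIR521-1 lies well above MIR521-2.

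The sequence shown for miR-518e-5p is listed for 6 genes, whose counts in a library bound how many reads could have been counted at all 6. The lowest among them was 5 and 9 in 52X T4A and 4 and 1 in 52X WT, and the highest was 15 and 34 in 52X T4A and 16 and 11 in 52X WT. So most counts of the higher genes, MIR519A1 among them, were not shared by all 6. How reads that match several genes were assigned was not given in the sources used here. All exact matches of the members' matures in the GRCh37 genome lay on chromosome 19, at 1 to 6 places each, so that no full match lay on another chromosome.

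In GENCODE v44lift37, which lists 42 of the members, 38 lie in introns and 1 in an exon of the lncRNA gene ENSG00000269842, which has the same strand and covers C19MC. MIR371A and MIR372 lie in introns, and MIR373 in an exon, of another lncRNA gene, ENSG00000269564. An annotated gene on the opposite strand, ENSG00000269877, overlaps MIR371A and MIR372 with an exon. In the deposited tables, 7 features lie opposite to the cluster, namely MIR371B and 6 RNU6 pseudogenes, and all had 0 counts in every library. The counts described here were therefore confined, among the listed features of the region, to the strand of C19MC and MIR371A to MIR373.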

How the data were processed

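Each library had its own table, in which the authors gave an unnormalized count of reads for every small RNA feature. Labels describe total RNA and single-end libraries of 50 bp reads, though reads were not used here. The submitters' processing notes name cutadapt v4.6, Bowtie2 v2.3.5.1, featureCounts v1.5.0 and the hg38 build. Their settings, including the treatment of reads that match several genes, were not given in the sources used here. Such reads could raise near-identical genes together. The intervals come from the edgeR fit and include its estimate of variation between replicates, while the floors cover counting error only. Neither accounts for reads that match several genes.

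Features were named from GENCODE v44lift37 by identifier (42 members) or RefSeq GRCh38.p14 by position (7 members), and coordinates are those deposited. Counts were tested in R v4.3.3 with edgeR v4.0.16 (quasi-likelihood F test, filterByExpr with a minimum count of 10, TMM factors, Benjamini-Hochberg adjustment over 1480 features). A call required a fold change over 1.5 with an FDR under 0.05. SE was the size of the log2 fold change over the square root of F. Sums were compared by exact permutation over libraries. The scripts were tested on simulated data. Alternatives covered scaling factors, the filter, DESeq2 v1.42.0, a robust fit, abundant features, a replicate block and each library left out.

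Every tested member is named, together with lists set for context and others where marked. Members, lists and tests were chosen with earlier results of these data known. The correlation of deviations between same-numbered libraries was 0.10 over 1480 features, and the labels give no shared origin for a number, so no block was used in the main test.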

Additional observations from a re-analysis of the deposited data

How the results depend on the processing

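No member was called by edgeR under any alternative tried, with a smallest FDR of 0.224 over all of them. DESeq2 gave no adjusted p (NA) for 13 of the 15 members, and so could call only MIR512-1 and MIR512-2, at 0.725 each. In edgeR the median log2 fold change of the tested members stayed between 0.19 and 0.58 when 1 library was left out. Under the replicate block the median was 0.30, no member was called (smallest edgeR FDR 0.405), 18 features were called in place of 2, and MIR517C was at -0.066. The numbers mark no stated pairing. Other totals of calls over all features were 9 with library size alone, 29 without the filter, 30 with DESeq2, 0 with TMM factors from miRNAs alone, and 4 to 218 with 1 library left out. Upper quartile factors and library size alone moved the median of all features from -0.05 to 0.13 and 0.14, and under them MIR372 was at 0.074 and 0.099 and the sum of the other 44 C19MC genes at a log2 ratio of 0.63 and 0.64. With 1 library left out, the log2 ratio ranged from 0.12 (without 52X WT replicate 1) to 0.51 for the C19MC sum, and from 0.38 (without 52X WT replicate 1) to 0.53 for the other 44 genes. Without MIR372 the ratio of the MIR371A to MIR373 sum was 0.24.

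Of 60 log2 fold changes with 1 library left out, 11 changed sign, and none of them was called. Those of members that changed sign ranged from -0.25 to 0.0196 for MIR372, from -0.54 to 0.82 for MIR517A, from -0.11 to 0.62 for MIR517B, from -1.34 to 0.65 for MIR517C, from -1.42 to 0.99 for MIR519D, from -0.10 to 0.72 for MIR519A1, from -0.56 to 0.65 for MIR519A2, from -0.20 to 1.27 for MIR520G and from -0.15 to 1.53 for MIR516B2. With all libraries, 147 of 150 kept their direction. A lone library left in a group is assumed to vary like the others. Depth limited most members, since 34 of 49 did not pass the filter and 3 counts correspond to between 0.0950 and 0.206 CPM.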
